A study of Mus musculus with 27 samples.

Results

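CD8+ and CD4+ T cells that lack Raptor were compared after stimulation through the T cell receptor, across all genes of a read count table. The comparison set 3 libraries of stimulated Raptor KO CD8+ cells against 3 libraries of stimulated Raptor KO CD4+ cells, 6 of the 27 libraries of the series. The members were fixed by the labels, not by measured values, and the 45S ribosomal RNA precursor Rn45s was left out. Raptor KO cells came from mice that carry a Cd4-cre transgene and floxed Rptor alleles (B6-Tg(Cd4-cre)1Cwi-Rptortm1.1Dmsa), on a B6 background. Cre driven by Cd4 acts in thymic precursors of both subsets, so CD8+ and CD4+ cells alike come from cells that expressed it. The question was which differences between the subsets appear after stimulation in the absence of Raptor. Therefore resting Raptor KO cells and stimulated B6 wild-type (WT) cells of both subsets, 3 libraries each, were used for comparison. Stimulated cells had been kept for 48 h on plates coated with 10 µg/ml of antibodies to CD3 and CD28, resting cells for 48 h in IL-7, a cytokine that keeps naive T cells alive, at 5 ng/ml. Stimulated and resting cells therefore differ in the antibodies and in IL-7. T cells had been enriched from lymph node and spleen, pooled, by negative magnetic selection, and live cells were sorted before total RNA was taken. No age is given in the labels. Whether replicate libraries are separate animals is not stated, and the p-values describe the spread between these libraries alone.

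CD8+ T cells recognise peptides on MHC class I and, once activated, kill target cells with granules that hold perforin and granzymes. CD4+ T cells recognise peptides on MHC class II and act mostly through cytokines and CD40 ligand. In the thymus, Runx3 supports the CD8+ fate and silences Cd4, while ThPOK, encoded by Zbtb7b, supports the CD4+ fate. Rptor encodes Raptor, the scaffold subunit that distinguishes the kinase complex mTORC1 from mTORC2. That complex couples growth factor and nutrient signals to protein synthesis, glycolysis and cell growth in activated T cells.

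The unit of every level is CPM: with Rn45s left out, counts were brought to a shared library total by TMM. Values stand in the order of libraries 1, 2 and 3. They compare samples for 1 gene and not genes with each other, because they are not divided by gene length. Rn45s took 81.1% to 88.4% of the counts of each library, and the 6 libraries held 1533156 to 2226346 counts outside it. A tested gene had a median of 29 counts in a library of the 6, so small changes of low genes were not detectable at this depth. Protein-coding genes held 31.8%, 47.2% and 47.8% of the counts outside Rn45s in the CD8+ libraries, against 39.5%, 33.4% and 46.5% in the CD4+ libraries, and the part of these shares in the results was not tested. In all 4 Raptor KO groups library 1 stood apart: it held Xist, the RNA of the inactive X chromosome, at 1061 to 1474 CPM, and 4 Y-linked genes at a summed 0 to 0.667 CPM. Libraries 2 and 3 of those groups held Xist at 0 to 2.61 CPM and the Y-linked genes at 85.2 to 198 CPM, as did the 6 stimulated WT libraries at 0 to 5.84 and 80.4 to 109 CPM. Library 1 of each Raptor KO group thus did not come from the animals of libraries 2 and 3. Both subsets hold 1 such library, and counts without the Raptor KO libraries numbered 1 are given beside the totals. Rptor itself had 22.6, 17.3 and 19.6 CPM in stimulated Raptor KO CD8+ cells, against 25.1, 24.1 and 17.0 CPM in CD4+ cells (log2 fold change -0.16 ± 0.22 (SE), adjusted p = 0.818). In WT it averaged 23.5 ± 5.27 CPM in CD8+ and 26.3 ± 3.63 CPM in CD4+ cells (SD, n = 3 each), so counts over the whole gene did not separate the genotypes, and they are a weak check of an allele that loses only part of the gene.

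RNA of markers of other cells was found in both subsets. Ncr1 of NK cells and Itgam of myeloid cells had no count in the 6 libraries, but other markers of such cells did. Klrb1c of NK cells had 2 counts in CD8+ cells. Of the myeloid genes, Lyz2 had 1 count and Csf1r 4 counts in each subset. Trdc of gamma-delta T cells had 33 counts in CD8+ and 40 in CD4+ cells. Of 18 NK and gamma-delta T cell markers in the table the sum was 30.1, 29.3 and 43.5 CPM in CD8+ cells, against 31.3, 20.7 and 15.6 CPM in CD4+ cells. Of its 6 tested members Cd160 and Klrc1 were higher in CD8+ cells and none was lower. The call for Klrc1 was lost without CD8+ library 3 or CD4+ library 2 (adjusted p 0.0596 to 0.156), and without either of these libraries no member of the list passed. The sums of 17 B cell markers (97.1, 101.4 and 61.2 CPM in CD8+ against 65.5, 104.8 and 61.9 CPM in CD4+ cells) and of 16 myeloid and dendritic markers (42.7, 36.1 and 56.1 against 37.6, 40.7 and 44.9 CPM) overlapped between the subsets. So did those of 10 erythroid, platelet and stromal markers, at 14.2, 15.7 and 10.2 CPM in CD8+ against 17.1, 37.2 and 9.92 CPM in CD4+ cells. Ighm led the B cell sum in 5 of the 6 libraries, Ctss the myeloid sum and Pecam1 the last one in all 6. No tested member of these 3 lists passed. The part of other cells in the results below was not tested.

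Of 10493 genes tested, 562 differed between stimulated Raptor KO CD8+ and CD4+ cells at an adjusted p under 0.05, which is 5.36% (edgeR quasi-likelihood test, Benjamini-Hochberg adjustment over all genes tested). In CD8+ cells 286 of them were higher (2.73%) and 276 were lower (2.63%). The median log2 fold change over all genes tested was 0.02. Of the 286 higher genes 279 were protein coding and 176 differed by at least 1 on the log2 scale, and of the 276 lower genes 263 and 145. With Rn45s kept in the library totals 175 genes passed, 122 higher and 53 lower, so that 69.7% of the calls were higher against 50.9%. The 3 CD8+ libraries did not overlap the 3 CD4+ libraries for 278 of the higher and 271 of the lower genes, against 2245 (21.4%) of all genes tested. Without the Raptor KO libraries numbered 1, an alternative added after the data were seen, 312 genes passed (176 higher and 136 lower), and 297 of these were among the 562. With the 6 libraries fitted alone and no block, 507 of 8549 genes tested passed, 254 higher and 253 lower. With the library number as a block in that fit, 657 genes passed, 342 higher and 315 lower. Of the genes described below, Dapl1 and Rasgrp2 lost their call in both fits. Osm, Tigit and Myc passed as higher and Irf4 as lower in CD8+ cells in both. In the block fit and not the other, Fasl, Il3 and Myo10 passed as higher and Il2, Lif and Icos as lower in CD8+ cells. Fewer cells that express a gene and less of its RNA per cell cannot be told apart in these bulk samples.

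The genes that define the subsets were as labelled. Cd8a (chr6:71373427-71379173 on GRCm38) had 109.7, 112 and 91.7 CPM in CD8+ cells, against 0.570, 0 and 1.42 CPM in CD4+ cells (log2 fold change 7.01 ± 0.31 (SE), adjusted p = 5.6e-21). For Cd8b1, the second chain of the CD8 coreceptor, the values were 56.1, 67.4 and 44.7 CPM in CD8+ against 2.28, 4.14 and 2.83 CPM in CD4+ cells (log2 fold change 4.18 ± 0.30 (SE), adjusted p = 3.6e-12). Both were far above CD4+ levels in every CD8+ library. Cd4 (chr6:124864692-124888221) had 5.02, 0.523 and 2.74 CPM in CD8+ cells, against 187, 229.5 and 217 CPM in CD4+ cells (log2 fold change -6.37 ± 0.43 (SE), adjusted p = 2.8e-09). Each subset thus carried a residue of the other's coreceptor RNA of at most a few CPM.

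The 12 largest differences in the CD8+ direction, among genes with a mean of at least 10 CPM and no overlap, held Cd8a, Cd8b1, 4 chemokine genes, Ifng, the transcription factor Eomes, the granule gene Nkg7 and the surface proteins Crtam and Selp, with Bend4. The 12 largest in the CD4+ direction were Cd4, Zbtb7b, Cd40lg, Igsf23, Itih5, Il6ra, Casp6, Rgs10, Trib2, Gpr183, Arid5b and Izumo1r. Genes of target cell killing, cytokines and chemokines are described first, and lineage factors, receptors and pathways after them.

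For the members that carried the killing and chemokine result, the 250 bases before the start of the gene are shown, with the matches to the core that RUNX factors, regulators of T cell lineage genes, are known to bind. The sequences are from RefSeq on GRCm38.p6, written 5′ to 3′ on the gene's own strand. Capitals mark that core, the letters TGTGGT, or its reverse complement ACCACA, both searched. Gzmb (chr14:56262335-56262584, minus strand) holds a pair of matches, Prf1 (chr10:61297586-61297835, plus strand) and Xcl1 (chr1:164935523-164935772, minus strand) hold 1 each, and Ifng (chr10:118440796-118441045, plus strand) holds none in this window.
Gzmb: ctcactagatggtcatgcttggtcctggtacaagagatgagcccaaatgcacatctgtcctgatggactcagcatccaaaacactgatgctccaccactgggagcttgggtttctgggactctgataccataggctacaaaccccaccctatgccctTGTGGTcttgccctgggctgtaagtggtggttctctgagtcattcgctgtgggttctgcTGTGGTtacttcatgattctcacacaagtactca
Prf1: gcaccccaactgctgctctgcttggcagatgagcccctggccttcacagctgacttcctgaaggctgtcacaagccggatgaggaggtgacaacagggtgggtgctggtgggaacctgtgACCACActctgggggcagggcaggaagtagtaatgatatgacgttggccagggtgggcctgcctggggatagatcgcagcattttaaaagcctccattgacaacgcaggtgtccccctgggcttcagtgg
Xcl1: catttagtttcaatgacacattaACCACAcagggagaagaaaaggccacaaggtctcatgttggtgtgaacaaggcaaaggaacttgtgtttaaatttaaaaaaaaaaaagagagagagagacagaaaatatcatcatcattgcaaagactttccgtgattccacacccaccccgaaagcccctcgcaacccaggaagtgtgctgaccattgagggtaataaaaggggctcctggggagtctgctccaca
Ifng: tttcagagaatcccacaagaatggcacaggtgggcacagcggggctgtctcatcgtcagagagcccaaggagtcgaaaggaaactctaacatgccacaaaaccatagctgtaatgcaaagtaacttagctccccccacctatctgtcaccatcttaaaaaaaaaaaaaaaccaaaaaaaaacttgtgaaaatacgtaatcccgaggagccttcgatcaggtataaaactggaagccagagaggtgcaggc
Of the 15 genes of the granule, cytokine and chemokine lists that were higher in CD8+ cells, 13 had a promoter in the table and 5 of these (38.5%) held a match. Among the 12 largest differences in the CD4+ direction, 10 had one and 3 (30%) held a match, and 4614 of all 32851 promoters (14%) did. Among all genes called higher 43 of 217 promoters in the table (19.8%) held one, among all called lower 30 of 218 (13.8%), and among all genes tested 1002 of 7778 (12.9%). A match is a string of letters and not a measured binding site.

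Stimulated Raptor KO CD8+ cells held more RNA than CD4+ cells for 7 of the 13 tested members of a cytotoxic granule list, and less for none, against 2.73% and 2.63% of all genes tested. The median log2 fold change of the 13 was 1.54. Gzmb, a granzyme that triggers death in target cells, had 1390.3, 1639 and 966 CPM in CD8+ cells, against 139, 95.1 and 81.2 CPM in CD4+ cells (log2 fold change 3.66 ± 0.38 (SE), adjusted p = 2.4e-06). The CD4+ libraries were clearly above the resting level, and every CD8+ library was several times higher still. Prf1, the pore-forming protein perforin, had 28.5, 27.2 and 33.7 CPM in CD8+ against 3.42, 0.689 and 2.36 CPM in CD4+ cells (log2 fold change 3.70 ± 0.38 (SE), adjusted p = 1.6e-09). Nkg7, which is needed for granule release in mouse lymphocytes, had 117, 118 and 167 CPM in CD8+ against 7.41, 4.83 and 12.8 CPM in CD4+ cells (log2 fold change 3.94 ± 0.30 (SE), adjusted p = 1.4e-09). Ctsw, a cathepsin of cytotoxic cells, had 46.9, 42.9 and 42.3 CPM in CD8+ against 8.54, 8.96 and 2.36 CPM in CD4+ cells (log2 fold change 2.79 ± 0.29 (SE), adjusted p = 1.6e-09). For these 4 genes the lowest CD8+ library lay above the highest CD4+ library by a wide margin. The protease inhibitors that shield a killer cell from its own granzymes were expressed in both subsets and were higher in CD8+ cells: Serpinb9 had 357, 373 and 273 CPM in CD8+ against 122, 121 and 102 CPM in CD4+ cells (log2 fold change 1.54 ± 0.18 (SE), adjusted p = 5.4e-08). Serpinb6b had 316, 355 and 275 CPM in CD8+ against 88.9, 111 and 85.5 CPM in CD4+ cells (log2 fold change 1.73 ± 0.27 (SE), adjusted p = 3.3e-04). Tnfsf10, the death ligand TRAIL, had 43.5, 31.4 and 45.5 CPM in CD8+ against 10.8, 6.89 and 9.92 CPM in CD4+ cells (log2 fold change 2.09 ± 0.27 (SE), adjusted p = 2.9e-07). These 3 genes were likewise higher in each CD8+ library than in any CD4+ library.

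The 6 other tested members did not pass. Fas ligand, Fasl, had 36.0, 41.8 and 11.4 CPM in CD8+ cells, against 22.8, 22.1 and 5.20 CPM in CD4+ cells (log2 fold change 0.83 ± 0.48 (SE), adjusted p = 0.436), and library 3 of each subset was the lowest. Srgn, Lamp1, Rab27a, Unc13d and Stx11, which serve granule storage, transport and fusion, had log2 fold changes between -0.28 and 0.29. Of the granzymes other than Gzmb, Gzma, Gzmc, Gzmd, Gzmf, Gzmk and Gzmm were too low to be tested. The highest of them in the 6 libraries was Gzmc, with 2.51, 3.66 and 2.74 CPM in CD8+ and 1.14, 1.38 and 1.42 CPM in CD4+ cells.

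Cytokine genes split by direction. Of 16 tested members of a list of 26, 4 were higher in CD8+ cells and 2 were lower, against 2.73% and 2.63% of all genes tested. Ifng, the macrophage-activating interferon gamma, had 188, 224 and 106 CPM in CD8+ cells, against 10.3, 4.14 and 8.03 CPM in CD4+ cells (log2 fold change 4.47 ± 0.46 (SE), adjusted p = 1.7e-05). Csf2, encoding the myeloid growth factor GM-CSF, had 60.3, 98.3 and 32.5 CPM in CD8+ against 5.13, 6.20 and 2.83 CPM in CD4+ cells (log2 fold change 3.78 ± 0.51 (SE), adjusted p = 7.2e-05). For both, the lowest CD8+ library exceeded the highest CD4+ library severalfold. Lta, lymphotoxin alpha, had 124, 156 and 119 CPM in CD8+ against 59.8, 54.5 and 61.9 CPM in CD4+ cells (log2 fold change 1.18 ± 0.21 (SE), adjusted p = 6.2e-04), and Tnfsf11, the osteoclast factor RANKL, 49.4, 43.4 and 73.3 CPM in CD8+ against 10.3, 14.5 and 27.4 CPM in CD4+ cells (log2 fold change 1.65 ± 0.47 (SE), adjusted p = 0.0478). The call for Tnfsf11 was lost without any 1 of the 6 libraries other than CD4+ library 3 (adjusted p 0.0639 to 0.213). In the other direction, Il4, the signature cytokine of type 2 helper cells, had 0.837, 0.523 and 1.18 CPM in CD8+ cells, against 6.84, 11.0 and 5.67 CPM in CD4+ cells (log2 fold change -3.04 ± 0.76 (SE), adjusted p = 0.00941). Its call was lost without CD8+ library 2 or CD4+ library 2 (adjusted p 0.0609 to 0.0693). Tnfsf8, the CD30 ligand, had 22.6, 27.7 and 42.7 CPM in CD8+ against 108, 109 and 101 CPM in CD4+ cells (log2 fold change -1.72 ± 0.41 (SE), adjusted p = 0.0147). The call for Tnfsf8 was lost without CD8+ library 1 or CD8+ library 2 (adjusted p 0.0669 to 0.0773).

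Il21, a cytokine of follicular helper cells, had no count in the 3 CD8+ libraries and 4.56, 7.58 and 0.945 CPM in the CD4+ libraries. It was thus at least 8.23-fold lower in CD8+ cells, taking 3 counts in the group as the floor, which covers counting error only, but it did not pass (adjusted p = 0.328). Il2, the growth factor of activated T cells, had 5.02, 13.1 and 38.0 CPM in CD8+ against 17.1, 16.5 and 60.9 CPM in CD4+ cells (log2 fold change -0.64 ± 0.78 (SE), adjusted p = 0.782), with library 3 of each subset far above its other libraries. Tnf had 106, 81.5 and 107 CPM in CD8+ against 81.5, 84.1 and 83.1 CPM in CD4+ cells (log2 fold change 0.25 ± 0.29 (SE), adjusted p = 0.774), so the subsets overlapped. Il3, Il13, Lif, Osm, Ltb, Tgfb1 and Tnfsf14 did not pass, with log2 fold changes from -0.79 for Ltb and -0.79 for Lif to 1.96 for Il13. The 10 other members, Il5, Il6, Il9, Il10, Il17a, Il17f, Il22, Csf1, Spp1 and Areg, were too low to be tested.

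Chemokine genes supplied 4 of the 12 largest differences in the CD8+ direction. Of 5 tested members of a list of 13, 4 were higher in CD8+ cells and none was lower, against 2.73% and 2.63% of all genes tested. Of the 13, 11 were in the count table, and the low-count filter kept 5. That filter can keep a gene that is high in 1 group alone. Xcl1 and Ccl9 held few counts in the CD4+ and resting Raptor KO libraries, so the share is a description. Ccl3 and Ccl4, which attract inflammatory leukocytes, had 172, 193 and 404 CPM and 125, 137 and 258 CPM in CD8+ cells, against 16.5, 8.27 and 13.7 CPM and 14.2, 8.27 and 9.92 CPM in CD4+ cells. Their log2 fold changes were 4.30 ± 0.64 with adjusted p = 6.2e-04, and 4.01 ± 0.53 with adjusted p = 1.3e-04. Xcl1, which attracts cross-presenting dendritic cells, had 42.7, 44.4 and 184 CPM in CD8+ against 0.570, 0.689 and 1.42 CPM in CD4+ cells (log2 fold change 6.55 ± 0.90 (SE), adjusted p = 1.8e-04). CD8+ library 3 was the highest for all 3 genes, and the other CD8+ libraries were still far above every CD4+ library. Ccl9 had 20.9, 30.3 and 36.9 CPM in CD8+ against 0, 1.38 and 0 CPM in CD4+ cells (log2 fold change 6.08 ± 0.76 (SE), adjusted p = 9.1e-07). The CD4+ libraries held 2 counts of it, and the ratio of the pooled counts was 83.3 (95% counting interval 22.7 to 693.0). Ccl9, Ccl3 and Ccl4 are neighbours on chromosome 11, at chr11:83572919-83578636, chr11:83647844-83649355 and chr11:83662584-83664683. Ccl5, a late effector chemokine, had 1.67, 3.66 and 1.18 CPM in CD8+ against 0, 0 and 0.945 CPM in CD4+ cells (log2 fold change 2.33 ± 1.05 (SE), adjusted p = 0.249) and did not pass. The Xcl1 call was lost where the 6 libraries were fitted alone.

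**Figure D1:**
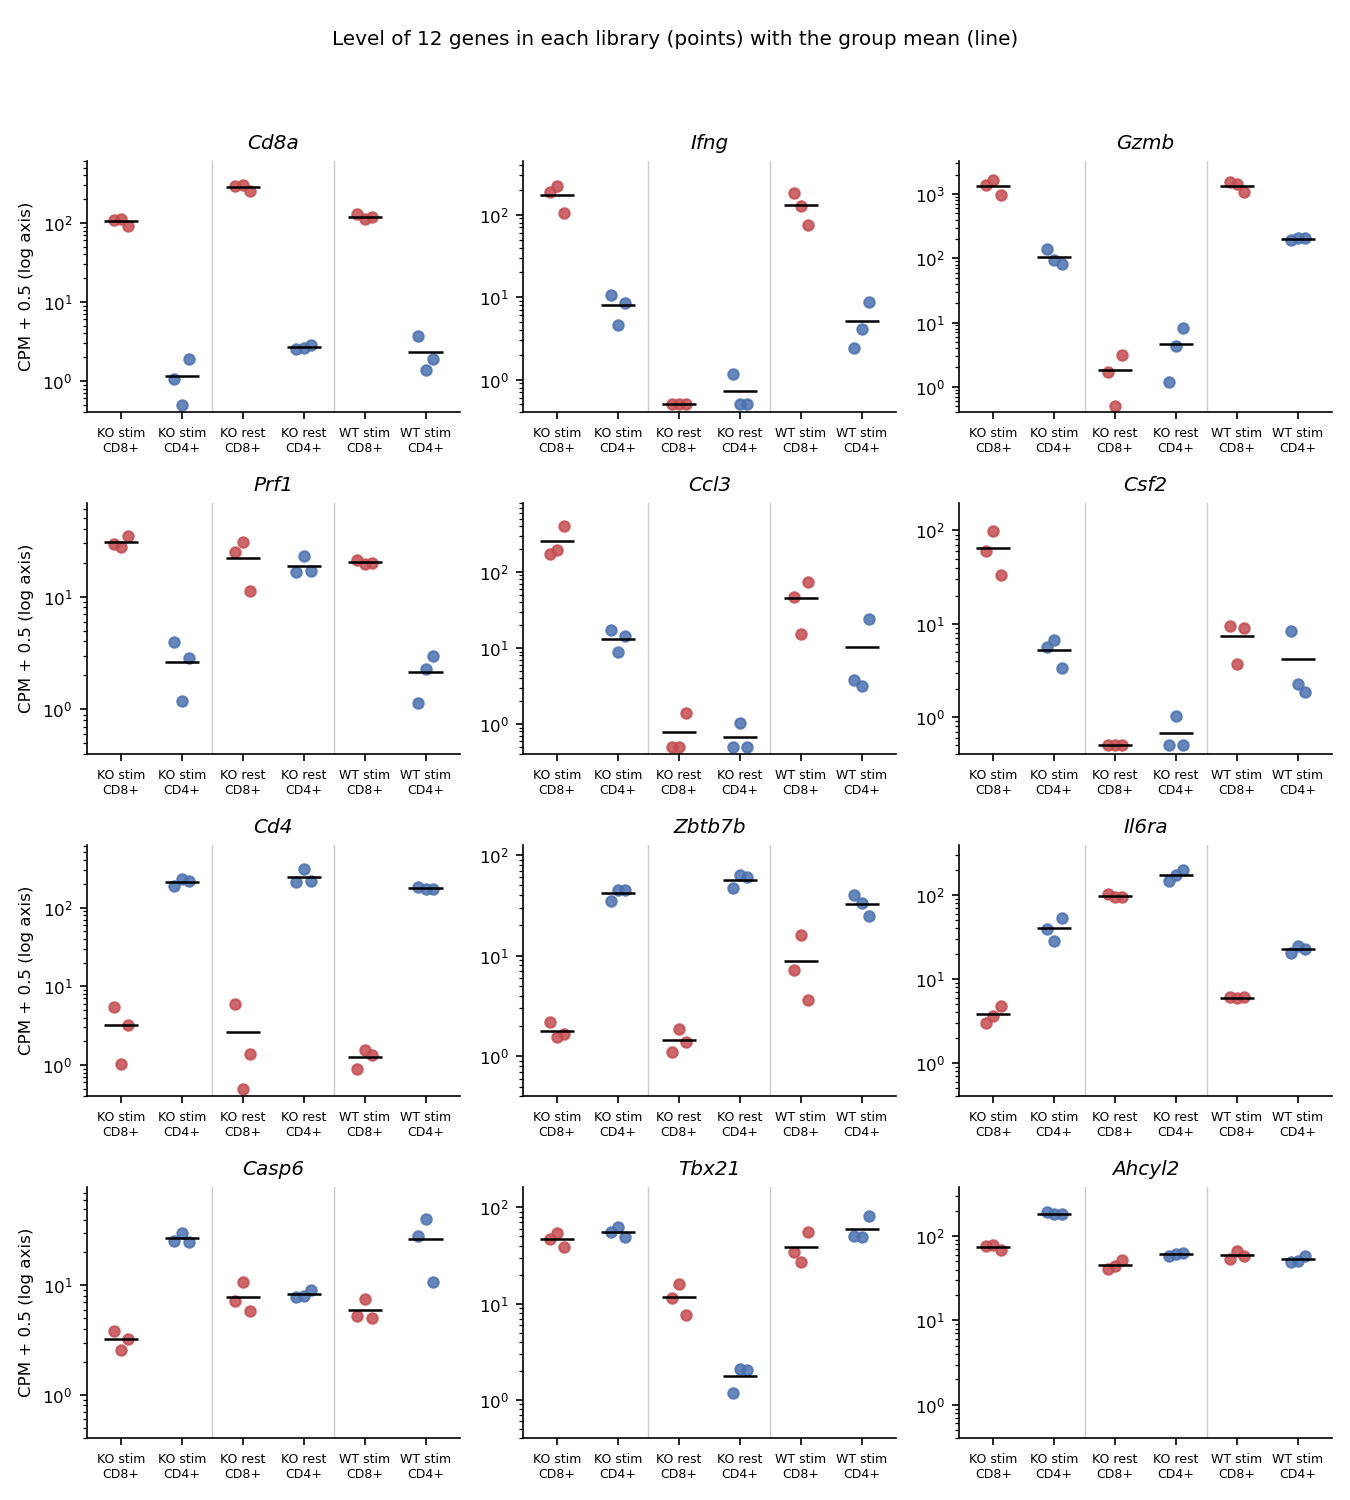
Levels of 12 genes in the libraries of 6 groups, as CPM + 0.5 on a log axis, with 1 point per library and a line at each group mean; CD8+ cells are red and stand left of CD4+ cells in blue, and KO means Raptor KO. Ifng, Ccl3 and Csf2 lie at or near 0 in both resting subsets and far apart in the stimulated Raptor KO ones. In stimulated WT the subsets overlap for Ccl3 and Csf2. Cd8a and Cd4 are apart in every pair, and Tbx21 is apart at rest only.

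Of 12 CD8 lineage genes, all tested, 8 were higher in CD8+ cells and none was lower, against 2.73% and 2.63% of all genes tested. The median log2 fold change of the 12 was 3.28. Besides Cd8a, Cd8b1, Nkg7 and Ctsw the 8 higher genes were Eomes, Runx3, Klrd1 and Klrk1. Eomes, a T-box factor of effector and memory CD8+ cells, had 33.5, 53.8 and 23.9 CPM in CD8+ cells, against 2.85, 2.07 and 1.89 CPM in CD4+ cells (log2 fold change 3.99 ± 0.44 (SE), adjusted p = 2.1e-08). Runx3 had 77.0, 82.1 and 61.9 CPM in CD8+ against 40.4, 49.6 and 35.9 CPM in CD4+ cells (log2 fold change 0.81 ± 0.20 (SE), adjusted p = 0.00714), a smaller difference without overlap whose call was lost without CD8+ library 2 or CD4+ library 3 (adjusted p 0.0582 to 0.0619). The NKG2D receptor gene Klrk1 had 15.1, 16.7 and 10.2 CPM in CD8+ against 0.570, 2.07 and 0.472 CPM in CD4+ cells (log2 fold change 3.77 ± 0.53 (SE), adjusted p = 2.5e-06). Klrd1, encoding CD94, had 1.67, 7.32 and 5.49 CPM in CD8+ against 0.570, 0 and 0 CPM in CD4+ cells, a ratio of pooled counts of 28.2 (95% counting interval 4.69 to 1151.0) with 1 count in the CD4+ libraries. Its call was lost without any 1 of the 6 libraries other than CD8+ library 1 or CD4+ library 1 (adjusted p 0.0647 to 0.103). Tbx21, encoding T-bet, the factor of type 1 responses, did not differ past the threshold: it had 46.0, 53.3 and 38.4 CPM in CD8+ against 55.3, 62.0 and 48.6 CPM in CD4+ cells (log2 fold change -0.27 ± 0.22 (SE), adjusted p = 0.625). Itgae, Ccl5 and Patz1 did not pass either.

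The CD4 lineage and helper list had 13 tested members, with a median log2 fold change of -1.46. Of these 6 were lower in CD8+ cells and 1 was higher, against 2.63% and 2.73% of all genes tested. Zbtb7b (chr3:89377644-89394776) had 1.67, 1.05 and 1.18 CPM in CD8+ cells, against 34.7, 44.1 and 44.4 CPM in CD4+ cells (log2 fold change -4.98 ± 0.41 (SE), adjusted p = 9.3e-12). Cd40lg, which helps B cells and dendritic cells, had 0.837, 1.57 and 2.35 CPM in CD8+ against 31.9, 33.8 and 33.5 CPM in CD4+ cells (log2 fold change -4.19 ± 0.45 (SE), adjusted p = 1.9e-08). Gata3, the factor of type 2 helper cells, had 56.1, 51.8 and 35.7 CPM in CD8+ against 204, 287 and 168 CPM in CD4+ cells (log2 fold change -2.22 ± 0.31 (SE), adjusted p = 8.6e-05). In these 3 genes every CD4+ library was above every CD8+ library, although Gata3 was present in both subsets. Izumo1r, the folate receptor FR4 of regulatory and anergic CD4+ cells, had 10.0, 20.9 and 17.3 CPM in CD8+ against 72.3, 74.4 and 87.4 CPM in CD4+ cells (log2 fold change -2.22 ± 0.29 (SE), adjusted p = 1.0e-05). Tnfrsf4, the costimulatory receptor OX40, had 89.6, 97.2 and 63.9 CPM in CD8+ against 143, 165 and 154 CPM in CD4+ cells (log2 fold change -0.89 ± 0.20 (SE), adjusted p = 0.00497). The exception was Ahr, a ligand-activated factor of Th17 and regulatory cells, which was higher in CD8+ cells: 18.4, 14.1 and 12.9 CPM in CD8+ against 6.84, 4.14 and 3.78 CPM in CD4+ cells (log2 fold change 1.59 ± 0.47 (SE), adjusted p = 0.0359). Its call was lost without any 1 of the 6 libraries other than CD4+ library 1 (adjusted p 0.0562 to 0.154), and with DESeq2 and limma-voom. Tox, Icos, Bcl6, Cxcr5, Rora and Maf did not pass.

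Of 9 tested regulatory T cell genes, 2 were lower in CD8+ cells and 1 was higher, against 2.63% and 2.73% of all genes tested. Foxp3, the defining factor of regulatory T cells, had 2.51, 1.05 and 0.392 CPM in CD8+ cells, against 14.8, 8.96 and 3.78 CPM in CD4+ cells (log2 fold change -2.98 ± 0.63 (SE), adjusted p = 0.00145). Gpr83, a receptor enriched in those cells, had 2.51, 1.57 and 1.96 CPM in CD8+ against 7.98, 9.65 and 11.3 CPM in CD4+ cells (log2 fold change -2.28 ± 0.55 (SE), adjusted p = 0.00577). Ikzf2, the zinc finger protein Helios, was instead higher in CD8+ cells, at 138, 133 and 124 CPM in CD8+ against 79.2, 57.9 and 68.5 CPM in CD4+ cells (log2 fold change 0.93 ± 0.23 (SE), adjusted p = 0.0107). The call for Ikzf2 was lost without CD4+ library 2 (adjusted p = 0.0688). Il2ra, which encodes CD25 and gives the IL-2 receptor its high affinity, had 613, 609 and 463 CPM in CD8+ against 650.0, 661 and 617 CPM in CD4+ cells (log2 fold change -0.20 ± 0.28 (SE), adjusted p = 0.824), so CD25 RNA was high in both subsets. The share of regulatory T cells among the CD4+ cells was not tested.

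Among the largest CD4+ differences outside these lists, Casp6, an executioner caspase, had 3.35, 2.09 and 2.74 CPM in CD8+ cells, against 25.1, 29.6 and 24.6 CPM in CD4+ cells (log2 fold change -3.28 ± 0.42 (SE), adjusted p = 2.9e-07). Rgs10, which dampens G protein signalling, had 1.67, 3.14 and 4.70 CPM in CD8+ against 21.6, 36.5 and 31.2 CPM in CD4+ cells (log2 fold change -3.06 ± 0.37 (SE), adjusted p = 1.0e-07). Arid5b, a chromatin regulator, had 15.1, 13.1 and 18.4 CPM in CD8+ against 84.3, 75.8 and 68.5 CPM in CD4+ cells (log2 fold change -2.27 ± 0.18 (SE), adjusted p = 1.1e-12). All 3 were low in every CD8+ library. Itih5, a hyaluronan-binding secreted protein, had 3.35, 1.05 and 3.14 CPM in CD8+ against 22.2, 35.8 and 35.9 CPM in CD4+ cells (log2 fold change -3.63 ± 0.53 (SE), adjusted p = 2.1e-05), and the pseudokinase gene Trib2 3.35, 2.09 and 6.27 CPM in CD8+ against 26.8, 19.3 and 20.8 CPM in CD4+ cells (log2 fold change -2.40 ± 0.28 (SE), adjusted p = 3.3e-08). Igsf23 had 5.02, 0.523 and 0.392 CPM in CD8+ against 28.5, 33.8 and 17.9 CPM in CD4+ cells (log2 fold change -4.10 ± 0.91 (SE), adjusted p = 0.00913). The call for Igsf23 was lost without CD8+ library 2 or CD8+ library 3 (adjusted p 0.0676 to 0.0682) and with DESeq2. On the CD8+ side, Crtam, an adhesion molecule of activated cytotoxic cells, had 31.0, 39.2 and 78.8 CPM in CD8+ against 1.71, 2.76 and 0.945 CPM in CD4+ cells (log2 fold change 4.87 ± 0.45 (SE), adjusted p = 1.6e-09). Bend4 had 62.8, 73.7 and 59.2 CPM in CD8+ against 5.13, 3.45 and 3.78 CPM in CD4+ cells (log2 fold change 3.96 ± 0.34 (SE), adjusted p = 1.6e-09). Both separated the subsets in every library. Selp, the adhesion molecule P-selectin, had 25.1, 33.5 and 5.10 CPM in CD8+ against 0, 0.689 and 1.89 CPM in CD4+ cells (log2 fold change 4.38 ± 0.88 (SE), adjusted p = 0.00241), with CD8+ library 3 the lowest, and its call was lost with limma-voom and with the 6 libraries fitted alone.

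Receptors for homing and for cytokines differed in both directions. Of 18 tested chemokine and homing receptors, 3 were higher and 2 were lower in CD8+ cells, against 2.73% and 2.63% of all genes tested. Ccr7, which guides T cells into lymph nodes, had 372, 444 and 252 CPM in CD8+ cells, against 191, 178 and 134 CPM in CD4+ cells (log2 fold change 1.09 ± 0.16 (SE), adjusted p = 6.4e-06). Itga4, the alpha4 integrin chain, had 38.5, 31.9 and 23.1 CPM in CD8+ against 9.68, 13.1 and 8.50 CPM in CD4+ cells (log2 fold change 1.57 ± 0.24 (SE), adjusted p = 2.4e-05). Neither overlapped between the subsets. Gpr183, an oxysterol receptor that guides helper cells in lymphoid tissue, had 25.1, 25.1 and 21.2 CPM in CD8+ against 112, 145 and 100.1 CPM in CD4+ cells (log2 fold change -2.33 ± 0.19 (SE), adjusted p = 2.8e-12). Ccr8, a receptor of type 2 helper and regulatory cells, had 56.1, 59.1 and 36.5 CPM in CD8+ against 225, 207 and 157 CPM in CD4+ cells (log2 fold change -1.98 ± 0.38 (SE), adjusted p = 0.00513), and DESeq2 did not call it.

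Of 29 tested cytokine receptor and STAT genes, 7 were higher in CD8+ cells and 4 were lower, against 2.73% and 2.63% of all genes tested. Il6ra, the IL-6 receptor, had 2.51, 3.14 and 4.31 CPM in CD8+ cells, against 38.7, 27.6 and 52.9 CPM in CD4+ cells (log2 fold change -3.50 ± 0.25 (SE), adjusted p = 8.8e-14). Its partner Il6st, encoding gp130, had 39.3, 29.3 and 45.9 CPM in CD8+ against 80.3, 63.4 and 70.8 CPM in CD4+ cells (log2 fold change -0.90 ± 0.17 (SE), adjusted p = 2.3e-04). Both chains of the IL-6 receptor were thus lower in every CD8+ library. Ifngr2, a chain of the interferon gamma receptor, had 11.7, 10.5 and 5.88 CPM in CD8+ against 25.1, 27.6 and 16.5 CPM in CD4+ cells (log2 fold change -1.35 ± 0.29 (SE), adjusted p = 0.00166). Among the 7 higher members Stat4, which relays IL-12, had 40.2, 49.7 and 37.2 CPM in CD8+ against 16.0, 9.65 and 8.97 CPM in CD4+ cells (log2 fold change 1.88 ± 0.22 (SE), adjusted p = 2.2e-08). Il18r1, a chain of the IL-18 receptor, had 20.1, 7.84 and 5.88 CPM in CD8+ against 2.28, 2.07 and 0.945 CPM in CD4+ cells (log2 fold change 2.51 ± 0.52 (SE), adjusted p = 0.00131). Il12rb2, a chain of the IL-12 receptor, had 159.9, 149.5 and 60.8 CPM in CD8+ against 48.4, 50.3 and 25.0 CPM in CD4+ cells (log2 fold change 1.58 ± 0.44 (SE), adjusted p = 0.0419). The call for Il12rb2 was lost without any 1 of the 6 libraries other than CD8+ library 3 (adjusted p 0.0761 to 0.171) and with limma-voom. Each of these 3 had no overlap between the subsets.

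The other 4 higher members were Stat3, Stat5a, Il21r and Il10ra. Stat3 had 321, 351 and 206 CPM in CD8+ cells, against 154, 148 and 137 CPM in CD4+ cells (log2 fold change 1.00 ± 0.17 (SE), adjusted p = 8.4e-05), and Stat5a, which relays IL-2, 269.5, 315 and 230.1 CPM in CD8+ against 166, 148 and 179 CPM in CD4+ cells (log2 fold change 0.72 ± 0.15 (SE), adjusted p = 9.8e-04). Il21r had log2 fold change 0.73 ± 0.16 with adjusted p = 0.00216, and Il10ra 1.71 ± 0.30 with adjusted p = 4.7e-04, a call lost with the 6 libraries fitted alone. The chains of the IL-2 receptor did not pass: Il2rb had 381, 466 and 289 CPM in CD8+ against 326, 341 and 316 CPM in CD4+ cells (log2 fold change 0.21 ± 0.16 (SE), adjusted p = 0.602), and the log2 fold change of Il2rg was 0.09 ± 0.15. Stat5b did not pass (0.05 ± 0.14 on the log2 scale).

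Of 25 tested costimulatory and inhibitory receptors and ligands, 3 were higher and 4 were lower in CD8+ cells, against 2.73% and 2.63% of all genes tested. Tnfrsf9, the costimulatory receptor 4-1BB, had 480.5, 518 and 337 CPM in CD8+ cells, against 153, 141 and 118 CPM in CD4+ cells (log2 fold change 1.70 ± 0.30 (SE), adjusted p = 0.00112). Cd96 had 39.3, 49.1 and 35.3 CPM in CD8+ against 21.6, 13.1 and 18.9 CPM in CD4+ cells (log2 fold change 1.18 ± 0.23 (SE), adjusted p = 4.9e-04). Cd160, also among the NK cell markers, had 9.21, 13.1 and 13.3 CPM in CD8+ against 5.13, 2.07 and 5.67 CPM in CD4+ cells (log2 fold change 1.43 ± 0.43 (SE), adjusted p = 0.0388). The call for Cd160 was lost without any 1 of the 6 libraries other than CD8+ library 1 (adjusted p 0.0522 to 0.201). Besides Cd40lg and Tnfrsf4, the lower members were Cd2, an adhesion receptor with 53.6, 68.0 and 54.1 CPM in CD8+ against 140.1, 158 and 124 CPM in CD4+ cells (log2 fold change -1.26 ± 0.19 (SE), adjusted p = 4.0e-05), and the inhibitory receptor gene Btla, with 34.3, 43.9 and 56.1 CPM in CD8+ against 107, 117 and 114 CPM in CD4+ cells (log2 fold change -1.30 ± 0.27 (SE), adjusted p = 0.00379). The inhibitory receptor genes Pdcd1, Ctla4, Lag3 and Tigit did not pass, at log2 fold changes of 0.55 ± 0.33, -0.21 ± 0.32, 0.40 ± 0.23 and 1.06 ± 0.39.

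Of 27 tested genes of T cell receptor signalling, 5 were lower in CD8+ cells and 1 was higher, against 2.63% and 2.73% of all genes tested, and the median log2 fold change was -0.18. The balance moved with the setting. Without CD8+ library 2 it was 2 higher and 3 lower, and with no low-count filter 3 higher and 4 lower. At a minimum fold change of 1.5 it was 1 higher and none lower. With Rn45s kept in the totals none passed in either direction. The adaptor gene Lcp2, encoding SLP-76, had 190.0, 169 and 142 CPM in CD8+ cells, against 263, 304 and 269 CPM in CD4+ cells (log2 fold change -0.74 ± 0.13 (SE), adjusted p = 8.2e-05). Its partners Vav1, Plcg1 and Zap70 had log2 fold changes of -0.81 ± 0.15 with adjusted p = 2.4e-04, -0.63 ± 0.15 with adjusted p = 0.007 and -0.54 ± 0.15 with adjusted p = 0.0242. That of Carmil2, a CD28 coupling protein, was -0.73 ± 0.19 with adjusted p = 0.00967. Calls were lost for Plcg1 without CD8+ library 2 (adjusted p = 0.0876), for Zap70 without any 1 of the 6 libraries other than CD8+ library 3 or CD4+ library 2 (adjusted p 0.0768 to 0.188) and for Carmil2 without CD8+ library 3 or CD4+ library 2 (adjusted p 0.0526 to 0.0639). Themis, a T cell adaptor that sets thresholds of signalling, had 46.0, 43.4 and 41.6 CPM in CD8+ against 23.9, 9.65 and 17.9 CPM in CD4+ cells (log2 fold change 1.31 ± 0.21 (SE), adjusted p = 4.9e-05). The CD3 chain genes Cd3d, Cd3e, Cd3g and Cd247 did not pass. Spry2, an inhibitor of receptor signalling, was too low in the 27 libraries to be tested, and had 5.86, 11.5 and 13.7 CPM in CD8+ against 1.14, 0.689 and 0 CPM in CD4+ cells, a ratio of pooled counts of 20.1 (95% counting interval 6.57 to 99.9).

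Of 47 tested members of a list of activation transcription factors, 13 were higher and 4 were lower in CD8+ cells, against 2.73% and 2.63% of all genes tested, with a median log2 fold change of 0.26. The list is not limited to factors that activation induces, and shares Klf2 and Satb1 with that of naive and quiescent T cells. Leaving out 1 library gave 9 to 14 higher and 2 to 4 lower, and with Rn45s kept in the totals 7 were higher and none lower. The NF-kB genes Nfkb1, Nfkb2 and Rel were in this group. Nfkb1 had 475, 537 and 417 CPM in CD8+ cells, against 254, 211 and 262 CPM in CD4+ cells (log2 fold change 0.97 ± 0.14 (SE), adjusted p = 5.0e-06), and Nfkb2 and Rel had log2 fold changes of 0.84 ± 0.16 with adjusted p = 5.0e-04 and 0.61 ± 0.14 with adjusted p = 0.00303. Relb had -0.44 ± 0.23 with adjusted p = 0.333 and did not pass. The orphan receptor genes Nr4a1 and Nr4a2, induced through the T cell receptor, were both higher. Nr4a1 had 203, 207 and 241 CPM in CD8+ against 120.2, 114 and 151 CPM in CD4+ cells (log2 fold change 0.75 ± 0.19 (SE), adjusted p = 0.011), a call lost without CD4+ library 1 or CD4+ library 2 (adjusted p = 0.071). Nr4a2 had 39.3, 49.1 and 65.1 CPM in CD8+ against 6.84, 6.89 and 14.6 CPM in CD4+ cells (log2 fold change 2.40 ± 0.34 (SE), adjusted p = 2.1e-05). Nr4a3, at 529, 505 and 525 CPM in CD8+ against 474, 414 and 438 CPM in CD4+ cells, did not pass (log2 fold change 0.23 ± 0.35 (SE), adjusted p = 0.837). Of the AP-1 genes, Jun had 27.6, 36.6 and 16.5 CPM in CD8+ against 12.5, 8.96 and 8.03 CPM in CD4+ cells (log2 fold change 1.42 ± 0.28 (SE), adjusted p = 7.0e-04). Fosb and Junb had log2 fold changes of 2.16 ± 0.57 with adjusted p = 0.0186 and 0.68 ± 0.20 with adjusted p = 0.0405. Their calls were lost, for Fosb without any 1 of the 6 libraries other than CD8+ library 3 (adjusted p 0.0575 to 0.109) and for Junb without any 1 of the 6 libraries other than CD8+ library 3 (adjusted p 0.0688 to 0.227).

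Zeb2, a factor of terminal effector CD8+ cells, had 44.4, 44.4 and 50.2 CPM in CD8+ cells, against 7.41, 6.20 and 6.61 CPM in CD4+ cells (log2 fold change 2.77 ± 0.33 (SE), adjusted p = 4.3e-08). Klf6 had 251, 251 and 248 CPM in CD8+ against 91.7, 107 and 112 CPM in CD4+ cells (log2 fold change 1.27 ± 0.13 (SE), adjusted p = 1.6e-09). Neither overlapped between the subsets, nor did the lower member Nfatc2, at 36.8, 30.8 and 32.1 CPM in CD8+ against 53, 62.0 and 49.6 CPM in CD4+ cells (log2 fold change -0.73 ± 0.17 (SE), adjusted p = 0.00562). Egr2, a factor that restrains T cell activation, was lower in CD8+ cells (log2 fold change -0.67 ± 0.20 (SE), adjusted p = 0.037), as were Klf2 (log2 fold change -1.85 ± 0.52 (SE), adjusted p = 0.0358) and the chromatin organiser gene Satb1 (log2 fold change -0.76 ± 0.20 (SE), adjusted p = 0.0186). Calls were lost for Egr2 without CD8+ library 1, CD8+ library 2 or CD4+ library 3 (adjusted p 0.0941 to 0.362), for Klf2 without any 1 of the 6 libraries other than CD4+ library 3 (adjusted p 0.0535 to 0.19) and for Satb1 without CD8+ library 3, CD4+ library 1 or CD4+ library 2 (adjusted p 0.0812 to 0.129). Irf4, which rises with the strength of receptor signalling, had 299, 363 and 249 CPM in CD8+ against 619.8, 631 and 567 CPM in CD4+ cells without overlap but did not pass (log2 fold change -1.0 ± 0.43 (SE), adjusted p = 0.25). The growth regulator gene Myc had 406, 418 and 428 CPM in CD8+ against 230.1, 247 and 297 CPM in CD4+ cells and did not pass either (log2 fold change 0.69 ± 0.27 (SE), adjusted p = 0.174).

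Genes of naive and quiescent T cells moved in both directions, 5 of 28 tested higher and 5 lower, against 2.73% and 2.63% of all genes tested. Among the higher ones were Ccr7, Ly6c2, Dapl1 and Btg2. Btg2, an inhibitor of proliferation, had 41.0, 29.3 and 39.6 CPM in CD8+ cells, against 25.1, 20.0 and 18.9 CPM in CD4+ cells (log2 fold change 0.78 ± 0.18 (SE), adjusted p = 0.00338). Dapl1 had log2 fold change 1.36 ± 0.38 with adjusted p = 0.0249. The call for Dapl1 was lost without any 1 of the 6 libraries other than CD8+ library 3 or CD4+ library 3 (adjusted p 0.0508 to 0.218), and with limma-voom. With the 6 libraries fitted alone it did not pass either, without a block (adjusted p = 0.0702) or with the library number as one (adjusted p = 0.0825). The lower ones were Klf2, which sustains the exit receptor S1pr1, Satb1, Cd55, Rasgrp2 and Ly6c1. Cd55, a complement regulator, had 3.35, 5.75 and 5.88 CPM in CD8+ against 9.68, 20.7 and 17.5 CPM in CD4+ cells (log2 fold change -1.58 ± 0.31 (SE), adjusted p = 6.7e-04). Rasgrp2 had -1.35 ± 0.38 with adjusted p = 0.0239 on the log2 scale. The call for Rasgrp2 was lost without any 1 of the 6 libraries other than CD8+ library 1 or CD4+ library 3 (adjusted p 0.0799 to 0.191), with DESeq2 and with limma-voom. With the 6 libraries fitted alone it did not pass either, without a block (adjusted p = 0.111) or with the library number as one (adjusted p = 0.113). Ly6c1 and Ly6c2 are close paralogs whose reads the counting could have divided. They went opposite ways: Ly6c2 had 17.6, 14.6 and 40.8 CPM in CD8+ against 1.71, 3.45 and 2.36 CPM in CD4+ cells (log2 fold change 3.36 ± 0.55 (SE), adjusted p = 3.3e-04), and Ly6c1 0, 0 and 0.784 CPM in CD8+ against 18.8, 15.9 and 9.45 CPM in CD4+ cells. Ly6c1 held 2 counts in the CD8+ libraries, and CD4+ over CD8+ was 40.4 (95% counting interval 10.8 to 340.0). S1pr1, Il7r, Tcf7, Lef1, Foxo1 and Bach2 did not pass.

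Metabolic, growth and cell cycle genes, the programmes that mTORC1 is best known for, showed few subset differences. With 0 to 2 calls a list in edgeR's test, most shares were close to the 5.36% of all genes tested. Of 27 tested members of the ATF4 response, none was higher and Stc2 was lower in CD8+ cells in that test, with no count in CD8+ and 0.570, 1.38 and 1.89 CPM in CD4+ cells (adjusted p = 0.0496). It was at least 2.41-fold lower taking 3 counts in the group as the floor. That call was lost without any 1 of the 6 libraries other than CD4+ library 1 (adjusted p 0.09 to 0.167) and with DESeq2 and limma-voom. Other fits called other members, all of them higher in CD8+ cells. Cth, an enzyme of cysteine synthesis, passed with DESeq2 and with no low-count filter. The amino acid transporter gene Slc7a5 passed with limma-voom, with the 6 libraries fitted alone and, with its partner Slc3a2, with the library number as a block. Chac1, an enzyme that degrades glutathione, passed without CD8+ library 3 or CD4+ library 1. Of 22 amino acid and nutrient transporters 2 were higher (4 with limma-voom, 5 with the block): Slc43a3 (log2 fold change 0.95 ± 0.24 (SE), adjusted p = 0.00796) and the taurine carrier gene Slc6a6 (log2 fold change 0.82 ± 0.18 (SE), adjusted p = 0.00199). Of 19 cytosolic tRNA synthetase genes 1 was higher, Iars (log2 fold change 0.45 ± 0.14 (SE), adjusted p = 0.0496). In glycolysis and lactate metabolism 1 of 22 was higher, the hexokinase gene Hk2 (log2 fold change 0.66 ± 0.18 (SE), adjusted p = 0.0196), and 1 was lower, the pyruvate kinase gene Pkm (log2 fold change -0.49 ± 0.14 (SE), adjusted p = 0.0296). Of 16 hypoxia response genes 1 was higher, Ndrg1 (log2 fold change 1.09 ± 0.31 (SE), adjusted p = 0.0283), and so was 1 of 24 cholesterol synthesis genes, Hmgcs1 (log2 fold change 0.52 ± 0.15 (SE), adjusted p = 0.0311). The hypoxia list moved with the setting: with the block 1 of 12 tested was higher and 3 were lower, and with limma-voom none passed. Calls were lost for Slc43a3 without CD8+ library 3 or CD4+ library 1 (adjusted p 0.0652 to 0.0737), for Iars without any 1 of the 6 libraries other than CD8+ library 2 (adjusted p 0.0505 to 0.225), for Hk2 without CD8+ library 2, CD4+ library 2 or CD4+ library 3 (adjusted p 0.0608 to 0.179), for Pkm without any 1 of the 6 libraries other than CD8+ library 1 or CD4+ library 2 (adjusted p 0.0803 to 0.18), for Ndrg1 without any 1 of the 6 libraries other than CD8+ library 3 or CD4+ library 2 (adjusted p 0.0705 to 0.211) and for Hmgcs1 without any 1 of the 6 libraries other than CD8+ library 1 (adjusted p 0.0533 to 0.262). Each of these calls except that for Slc6a6 thus rested on 1 or more single libraries.

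Few cell cycle genes passed, as for all genes tested. Of 28 genes of G2 and M phase 1 was higher in CD8+ cells, Cenpa, a centromeric histone with 36.8, 48.6 and 41.9 CPM against 19.4, 29.6 and 26.0 CPM in CD4+ cells (log2 fold change 0.78 ± 0.19 (SE), adjusted p = 0.00664). The call for Cenpa was lost without CD8+ library 2 or CD4+ library 1 (adjusted p 0.0683 to 0.0923), and 4 genes of this list were higher with limma-voom or with the library number as a block. Of 39 DNA replication genes none passed with edgeR, DESeq2 or limma-voom, 1 was lower with the block, and 2 had an unadjusted p under 0.05. The replicative helicase gene Mcm2 had 125, 139 and 124 CPM in CD8+ against 146, 150.3 and 139 CPM in CD4+ cells (log2 fold change -0.16 ± 0.15 (SE), adjusted p = 0.68). None of 14 fatty acid synthesis genes passed with edgeR or limma-voom, 1 was higher with DESeq2, and 3 had an unadjusted p under 0.05. None of 23 genes of ER stress and the unfolded protein response passed with edgeR, DESeq2 or limma-voom, 2 were higher with the block, and 5 had an unadjusted p under 0.05. None of 10 mitochondrially encoded transcripts passed with these 3 tools, and 0 had an unadjusted p under 0.05.

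Of 24 tested interferon response genes 6 were lower in CD8+ cells and none was higher, against 2.63% and 2.73% of all genes tested, with a median log2 fold change of -0.62 against 0.02 over all genes tested. The count of 6 rested on single libraries. It was 1 without CD4+ library 2, 2 without CD8+ library 1 or 2, and 4 without any other of the 6. It was also 1 without the Raptor KO libraries numbered 1 and with Rn45s kept in the totals, 0 at a minimum fold change of 1.5, and 8 with the 6 libraries fitted alone or with the block. Gbp2 and Gbp4, guanylate-binding proteins of cell defence, had 25.1, 27.2 and 45.1 CPM and 15.9, 15.7 and 23.5 CPM in CD8+ cells, against 98.0, 118 and 99.2 CPM and 45.0, 53.8 and 49.6 CPM in CD4+ cells. Their log2 fold changes were -1.64 ± 0.40 with adjusted p = 0.0179, and -1.38 ± 0.35 with adjusted p = 0.0222. Psmb9, an immunoproteasome subunit, had 55.2, 52.3 and 42.3 CPM in CD8+ against 83.7, 96.5 and 72.7 CPM in CD4+ cells (log2 fold change -0.76 ± 0.17 (SE), adjusted p = 0.00304). The 3 genes were lower in each CD8+ library than in any CD4+ library. Calls were lost for Gbp2 without CD8+ library 1, CD8+ library 2 or CD4+ library 2 (adjusted p 0.0624 to 0.0959) and for Gbp4 without any 1 of the 6 libraries other than CD8+ library 3 or CD4+ library 1 (adjusted p 0.0619 to 0.115).

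Of 21 death receptor and BCL2 family genes 2 were higher in CD8+ cells and none was lower, against 2.73% and 2.63% of all genes tested. The 2 were Tnfsf10 and the survival gene Bcl2l1 (log2 fold change 0.51 ± 0.14 (SE), adjusted p = 0.0208). The call for Bcl2l1 was lost without CD8+ library 2, CD4+ library 1 or CD4+ library 2 (adjusted p 0.116 to 0.157). Of 19 p53 targets 2 were higher and 3 were lower, beside the same shares of all genes tested. They were led by Perp, a cell junction protein with 8.37, 15.2 and 8.63 CPM in CD8+ against 2.85, 0 and 1.42 CPM in CD4+ cells (log2 fold change 2.80 ± 0.52 (SE), adjusted p = 4.2e-04), and Zmat3, an RNA-binding protein with 15.9, 11.5 and 12.9 CPM in CD8+ against 34.7, 37.9 and 31.2 CPM in CD4+ cells (log2 fold change -1.38 ± 0.24 (SE), adjusted p = 1.3e-04). The call for the kinase gene Plk2 (1.12 ± 0.32 with adjusted p = 0.029) was lost without CD8+ library 2, CD4+ library 1 or CD4+ library 3 (adjusted p 0.128 to 0.212). Among 31 tested genes of mTOR complexes and nutrient sensing none was higher and 2 were lower, against 2.73% and 2.63% of all genes tested. Sesn3, a sestrin that restrains mTORC1, had 95.4, 86.8 and 65.5 CPM in CD8+ against 308, 319 and 157 CPM in CD4+ cells (log2 fold change -1.67 ± 0.30 (SE), adjusted p = 0.00131). Fnip1, a folliculin partner in lysosomal nutrient sensing, had 80.4, 92.0 and 71.4 CPM in CD8+ against 133, 116 and 128 CPM in CD4+ cells (log2 fold change -0.63 ± 0.19 (SE), adjusted p = 0.0396). The call for Fnip1 was lost without any 1 of the 6 libraries other than CD8+ library 2 (adjusted p 0.0572 to 0.182) and with DESeq2. Mtor itself had 0.06 ± 0.15 with adjusted p = 0.92 on the log2 scale.

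**Figure D2:**
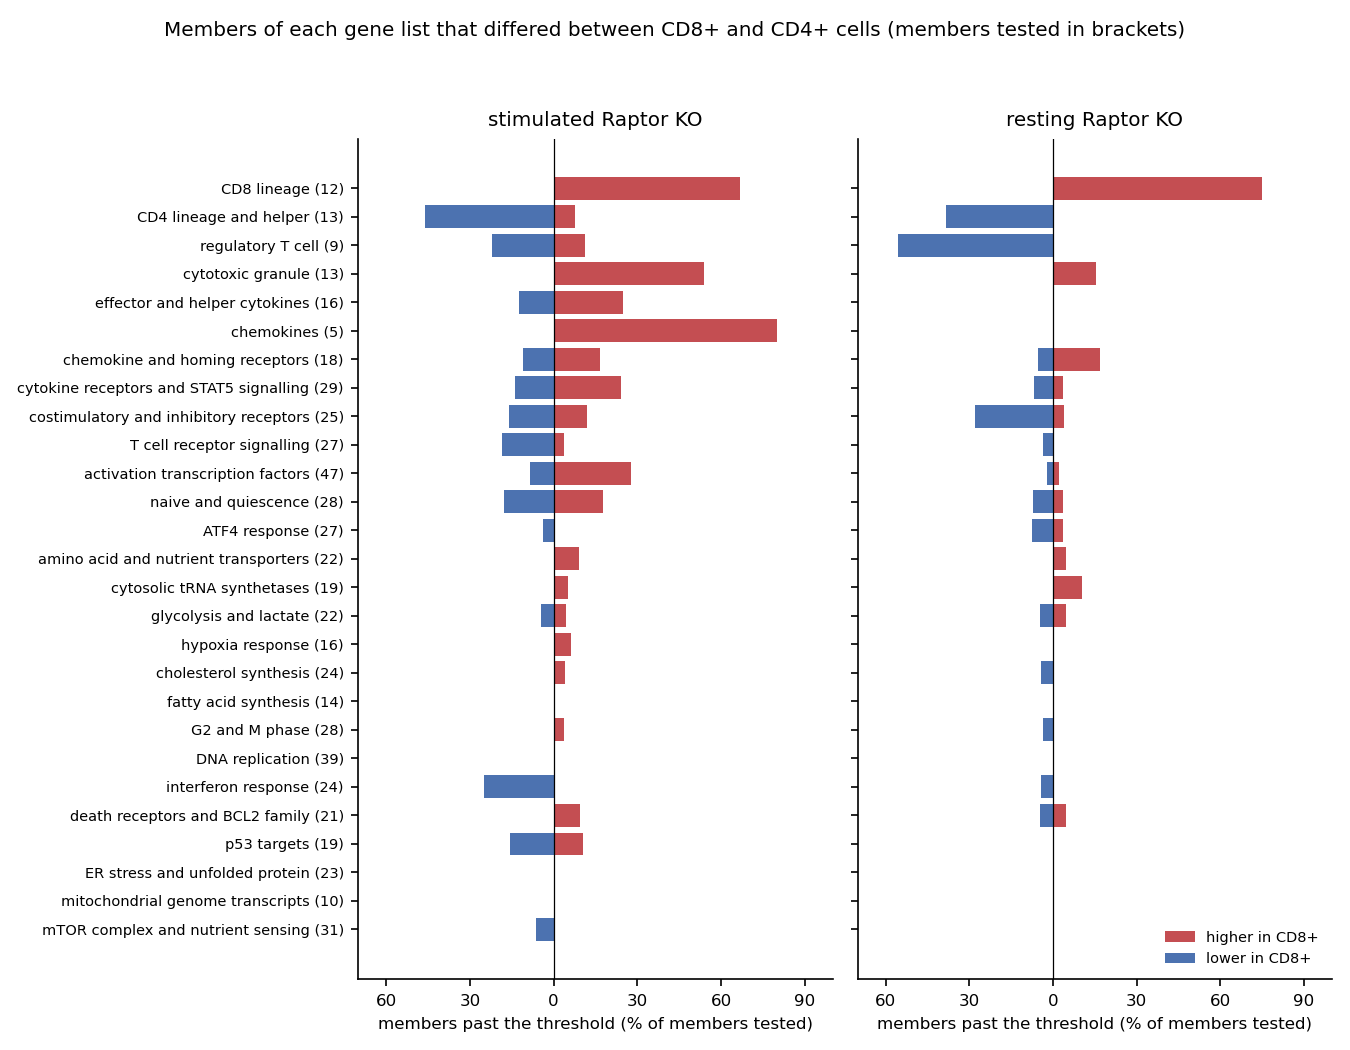
Share of the tested members of 27 gene lists, in percent, that were higher (right of 0) or lower (left of 0) in CD8+ than in CD4+ Raptor KO cells at an adjusted p under 0.05, in stimulated and in resting cells. The CD8 lineage, chemokine and cytotoxic granule lists reach farthest to the right in stimulated cells, and the lists of metabolism and cell cycle stay near 0.

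To ask which differences appear with stimulation, the subsets were compared in resting Raptor KO cells, where 331 genes (3.15%) passed, 173 higher (1.65%) and 158 lower (1.51%) in CD8+ cells. The stimulated and resting comparisons share no library. Of the 286 genes higher in stimulated CD8+ cells 54 were also higher at rest (18.9% of the 286 and 31.2% of the 173), and of the 276 lower genes 39 were also lower at rest (14.1% of the 276 and 24.7% of the 158). Resting counts moved with single libraries: leaving out CD8+ resting library 2 left 199 genes, and leaving out CD4+ resting library 2 left 216. Without the Raptor KO libraries numbered 1 it was 185 genes, 83 higher and 102 lower. With only the groups compared it was 195, 115 higher and 80 lower. With the library number as a block in that fit it was 442, 269 higher and 173 lower, of which 256 were among the 331. With Rn45s kept in the totals 136 genes passed at rest, 41 higher and 95 lower, or 30.1% higher against 52.3%. Across the 10493 genes the log2 fold changes of the stimulated and resting pairs correlated at r = 0.28. This value is across genes, which are not independent, and is a description.

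The change of the subset difference from rest to stimulation was tested as an interaction, which shares its stimulated libraries with the comparison above. For 135 genes (1.29%) the difference between CD8+ and CD4+ cells changed, 79 upward (0.753%) and 56 downward (0.534%). This count was 84 without CD8+ stimulated library 2, 85 without CD4+ stimulated library 2, and 51 without the Raptor KO libraries numbered 1. With only the groups compared it was 100, 49 upward and 51 downward. With the library number as a block in that fit it was 164, 83 upward and 81 downward, of which 112 were among the 135. With Rn45s kept in the totals it was 50, 44 upward and 6 downward, or 88% upward against 58.5%, and with limma-voom 83, 41 upward and 42 downward. Of the 286 genes higher in stimulated CD8+ cells 44 had passed the interaction in the same direction and not the resting comparison, and of the 276 lower genes 29. Their median log2 fold changes were 1.25 when stimulated and -0.31 at rest for the 44, and -1.33 and 0.10 for the 29, a description since the calls chose these genes. In a larger group, 187 of the higher and 207 of the lower genes, neither the resting comparison nor the interaction passed, so these data do not place their difference before or after stimulation. Finally, 49 higher and 37 lower genes passed at rest in the same direction with no interaction called, at median log2 fold changes of 1.74 and 1.70 for the 49 (stimulated and resting) and -1.41 and -1.33 for the 37. All these groups of genes come from the fit without a block.

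Among the 44, by mean CPM, 18 were higher in stimulated than in resting cells of both subsets, 15 were higher in stimulated CD8+ and lower in stimulated CD4+ cells, and 11 were lower in both. Gzmb was of the first kind, with 1.22, 0 and 2.67 CPM in resting CD8+ cells, against 0.668, 3.74 and 7.82 CPM in resting CD4+ cells, and an interaction of 5.33 ± 0.89 with adjusted p = 0.00328. That call was lost with only the groups compared, without a block (adjusted p = 0.0727) and with the library number as one (adjusted p = 0.144). Serpinb9 had 6.71, 3.38 and 4.46 CPM in CD8+ against 9.35, 7.49 and 3.13 CPM in CD4+ cells at rest (2.01 ± 0.40 with adjusted p = 0.0038). The NF-kB gene Nfkb1 had 69.5, 62.8 and 55.3 CPM in CD8+ against 77.4, 80.7 and 80.5 CPM in CD4+ cells at rest (1.32 ± 0.21 with adjusted p = 1.2e-04). At rest none of the 3 was higher in CD8+ cells. Prf1 had 24.4, 29.7 and 10.7 CPM in resting CD8+ cells, against 16.0, 22.5 and 16.4 CPM in resting CD4+ cells, with an interaction of 3.44 ± 0.50 with adjusted p = 2.6e-05. Its level in stimulated CD8+ cells was like that at rest and its level in stimulated CD4+ cells was far below. Stat4 (30.5, 34.5 and 28.5 CPM in CD8+ against 19.4, 29.4 and 28.9 CPM in CD4+ cells at rest, 1.61 ± 0.30 with adjusted p = 0.00164) was of this second kind by mean CPM. The homing genes Ccr7 and Itga4 had interactions of 1.39 ± 0.23 with adjusted p = 2.2e-04 and 1.97 ± 0.30 with adjusted p = 1.2e-04, and Ccr7 was higher in stimulated than in resting CD8+ cells while Itga4 was lower in both stimulated subsets. Rasgef1b had 3.75 ± 0.96 with adjusted p = 0.0338. Cd83, a marker of activated lymphocytes, had 158, 146 and 99.2 CPM in CD8+ against 49.6, 37.9 and 42.5 CPM in CD4+ cells when stimulated, and 1 count in the resting CD8+ libraries, where CD4+ over CD8+ was 12.8 (95% counting interval 1.94 to 540.0).

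Of the 29, most were lower in stimulated than in resting cells of both subsets (18), 7 were lower in stimulated CD8+ and higher in stimulated CD4+ cells, and 4 were higher in both. Casp6 had 6.71, 10.1 and 5.35 CPM in resting CD8+ cells, against 7.34, 7.49 and 8.60 CPM in resting CD4+ cells, with an interaction of -3.23 ± 0.63 with adjusted p = 0.00291. Arid5b had 31.1, 38.5 and 34.8 CPM in CD8+ against 42.1, 47.6 and 40.7 CPM in CD4+ cells at rest (-1.94 ± 0.25 with adjusted p = 2.8e-06). In both genes the subsets lay close together at rest, and with stimulation CD8+ levels were lower and CD4+ levels higher. Rgs10 had 13.4, 29.7 and 12.5 CPM in CD8+ against 18.7, 20.3 and 19.5 CPM in CD4+ cells at rest (-3.00 ± 0.50 with adjusted p = 2.7e-04), and Il6st 232, 215 and 170.2 CPM in CD8+ against 159, 164 and 152 CPM in CD4+ cells (-1.28 ± 0.22 with adjusted p = 5.5e-04). Il6ra was already lower in resting CD8+ cells, at 101, 93.2 and 94.5 CPM in CD8+ against 145, 171 and 197 CPM in CD4+ cells (log2 fold change -0.82 ± 0.15 (SE), adjusted p = 3.7e-04), and the difference widened with stimulation (-2.68 ± 0.30 with adjusted p = 3.7e-07). Gpr183 was likewise lower in both states (-1.20 ± 0.19 with adjusted p = 2.4e-05 at rest, interaction -1.12 ± 0.27 with adjusted p = 0.0193). F2r, the thrombin receptor PAR1, changed side: it had 7.53, 9.41 and 9.02 CPM in stimulated CD8+ cells against 31.3, 39.3 and 19.4 CPM in stimulated CD4+ cells, and 29.9, 22.3 and 27.6 CPM in CD8+ against 12.0, 11.8 and 3.91 CPM in CD4+ cells at rest (-3.20 ± 0.46 with adjusted p = 2.7e-05).

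For 22 of the higher and 4 of the lower genes both resting groups held at most 3 counts. Ifng, Ccl3, Ccl9, Csf2, Nr4a2, Selp and Perp were among the 22, so their differences were detectable only in stimulated cells at this depth. Their fitted interactions depend on the prior count and are not given. Resting CD8+ cells had no count of Ifng and resting CD4+ cells 0.668, 0 and 0 CPM, and for Ccl3 the values were 0, 0 and 0.891 CPM in CD8+ against 0, 0.535 and 0 CPM in CD4+ cells. Genes of the opposite kind differed at rest and not when stimulated: of the 173 genes higher at rest 118 (68.2%) did not pass in stimulated cells, and of the 158 lower at rest 118 (74.7%). The interaction was called against the resting direction for 19 of the first and 20 of the second. Tbx21 was one, with 11.0, 15.5 and 7.13 CPM in resting CD8+ cells, against 0.668, 1.60 and 1.56 CPM in resting CD4+ cells (log2 fold change 3.09 ± 0.55 (SE), adjusted p = 2.7e-04), and an interaction of -3.36 ± 0.59 with adjusted p = 9.0e-04. Il2rb, the chain that IL-2 and IL-15 receptors share, had 103, 110.1 and 102 CPM in CD8+ against 43.4, 42.2 and 35.2 CPM in CD4+ cells at rest (-1.17 ± 0.24 with adjusted p = 0.00385). On the CD4+ side, Il2ra had 4.88, 2.03 and 0.891 CPM in CD8+ against 20.0, 40.1 and 27.4 CPM in CD4+ cells at rest (log2 fold change -3.37 ± 0.45 (SE), adjusted p = 9.1e-05, interaction 3.17 ± 0.54 with adjusted p = 0.00345). Stimulated levels of these 3 genes lay close together in the subsets.

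Genes absent in 1 resting subset also passed the interaction, but their fitted values depend on the prior count and are no bound. Myo10, an unconventional myosin, had no count in resting CD8+ cells and 24.0, 40.6 and 25.0 CPM in resting CD4+ cells, at least 42.3-fold lower in resting CD8+ cells taking 3 counts in the group as the floor. With stimulation it had 29.3, 42.3 and 22.0 CPM in CD8+ cells, against 16.5, 20.7 and 10.9 CPM in CD4+ cells (log2 fold change 0.98 ± 0.31 (SE), adjusted p = 0.0624; interaction adjusted p = 3.7e-07), higher in every CD8+ library without passing. Nrp1, a surface receptor of thymic regulatory T cells, had 0, 0.676 and 0 CPM in CD8+ against 5.34, 5.35 and 3.13 CPM in CD4+ cells at rest and 10.9, 20.4 and 13.3 CPM in CD8+ against 6.84, 9.65 and 7.08 CPM in CD4+ cells when stimulated (interaction adjusted p = 0.00432). At rest CD4+ over CD8+ was 20.1 (95% counting interval 3.25 to 829.0). The direction of both genes by mean CPM thus was opposite in the stimulated and the resting cells. Ncapg2, a condensin subunit, had no count in resting CD8+ and 2.67, 7.49 and 0.782 CPM in resting CD4+ cells, and 76.2, 87.3 and 97.2 CPM in CD8+ against 82.0, 88.9 and 92.1 CPM in CD4+ cells when stimulated. Sntb2 had 0.837, 1.05 and 4.70 CPM in stimulated CD8+ cells against 4.56, 6.89 and 4.72 CPM in stimulated CD4+ cells, and 23.8, 28.4 and 35.7 CPM in CD8+ against 14.7, 8.02 and 8.60 CPM in CD4+ cells at rest (-2.48 ± 0.61 with adjusted p = 0.0224).

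**Figure D3:**
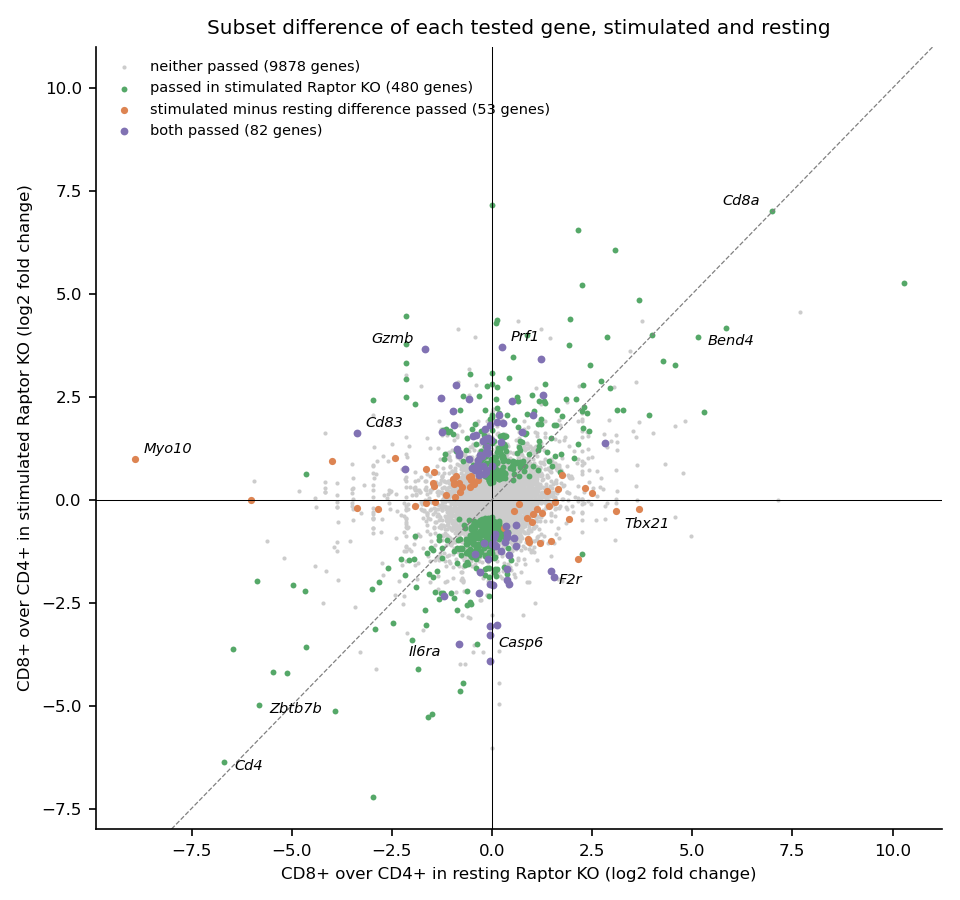
Log2 fold change of CD8+ over CD4+ cells in stimulated Raptor KO (vertical axis) against resting Raptor KO (horizontal axis), with 1 point per tested gene and a dashed line of equality. Of the 10493 genes 480 passed in stimulated cells and not in the interaction, 53 in the interaction and not in stimulated cells, and 82 in both; vertical stripes are genes near 0 counts at rest, Cd8a and Cd4 lie near the line, and Gzmb and Prf1 lie far above it.

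Stimulated WT cells gave the same comparison with Raptor present. There 544 genes (5.18%) passed, 323 higher (3.08%) and 221 lower (2.11%) in CD8+ cells. The Raptor KO and WT comparisons share no library. Of the 286 genes higher in Raptor KO CD8+ cells 133 were also higher in WT (46.5% of the 286 and 41.2% of the 323), and of the 276 lower genes 97 were lower in WT (35.1% and 43.9% of the 221). The sign in WT was that in Raptor KO for 251 of the 286 and 235 of the 276. Across all 10493 genes the log2 fold changes of the genotypes correlated at r = 0.47, again a description across genes. In all 3 comparisons 33 genes were higher and 24 lower.

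Gzmb, Prf1 and Ifng were also higher in WT CD8+ cells. Gzmb had 1552, 1441 and 1080.4 CPM in WT CD8+ cells, against 193, 209 and 204 CPM in WT CD4+ cells (log2 fold change 2.75 ± 0.36 (SE), adjusted p = 4.5e-05), and Prf1 20.5, 18.7 and 19.5 CPM in CD8+ against 0.649, 1.78 and 2.48 CPM in CD4+ cells (log2 fold change 3.35 ± 0.38 (SE), adjusted p = 2.1e-08). Ifng had 185, 128 and 75.5 CPM in CD8+ against 1.95, 3.56 and 8.26 CPM in CD4+ cells (log2 fold change 4.58 ± 0.46 (SE), adjusted p = 1.2e-05). The test of the difference between genotypes did not pass for these 3 genes, at 0.92 ± 0.48 with adjusted p = 0.605 for Gzmb, 0.35 ± 0.67 with adjusted p = 0.938 for Prf1 and -0.10 ± 0.72 with adjusted p = 0.99 for Ifng (Raptor KO minus WT on the log2 scale). With the library number as a block the difference passed for Gzmb (0.92, adjusted p = 0.0237). Ccl3, Ccl4 and Csf2 passed in Raptor KO and not in WT. In WT Ccl3 had 46.9, 15.0 and 74.1 CPM in CD8+ against 3.24, 2.67 and 23.4 CPM in CD4+ cells (log2 fold change 2.00 ± 0.64 (SE), adjusted p = 0.102), and Csf2 9.07, 3.21 and 8.48 CPM in CD8+ against 7.78, 1.78 and 1.38 CPM in CD4+ cells (log2 fold change 1.26 ± 0.62 (SE), adjusted p = 0.342). The difference between genotypes did not pass for them either (2.31 ± 0.94 with adjusted p = 0.437 for Ccl3, 2.22 ± 0.78 with adjusted p = 0.334 for Ccl4 and 2.52 ± 0.87 with adjusted p = 0.324 for Csf2), so it is not shown that they differ. With the block Ccl3 and Ccl4 passed in WT too (adjusted p = 0.00218 and 4.11e-05). Il2 passed in WT and not in Raptor KO, with 5.91, 3.21 and 46.7 CPM in CD8+ against 129.7, 65.1 and 256 CPM in CD4+ cells (log2 fold change -2.86 ± 0.67 (SE), adjusted p = 0.0126), and its difference between genotypes did not pass (2.22 ± 1.03 with adjusted p = 0.518). With the block the opposite held, Il2 being called in Raptor KO (adjusted p = 0.0438) and not in WT (adjusted p = 0.0537). With only the groups compared and no block it was called in neither (adjusted p = 0.818 in Raptor KO and 0.303 in WT).

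In 35 genes (0.334%) the subset difference itself differed between Raptor KO and WT, 18 upward (0.172%) and 17 downward (0.162%). This test shares its Raptor KO libraries with the comparison within Raptor KO. The count fell to 17 without stimulated Raptor KO CD8+ library 2, to 18 without stimulated Raptor KO CD4+ library 2 or WT CD8+ library 2, and to 22 without Raptor KO CD4+ library 1 or WT CD8+ library 1. It was 14 without the Raptor KO libraries numbered 1. With only the groups compared it was 18, 9 upward and 9 downward. With the library number as a block in that fit it was 102, 65 upward and 37 downward, of which 32 were among the 35. Of the 35, 9 were higher and 8 were lower in CD8+ cells in Raptor KO only, 6 were higher and 5 lower in WT only, 5 had passed in the same direction in both, and 2 in opposite directions. Ahr was higher in Raptor KO CD8+ than CD4+ cells and lower in WT ones, at 12.2, 4.28 and 3.96 CPM in CD8+ against 20.8, 26.7 and 6.88 CPM in CD4+ WT cells (log2 fold change -1.35 ± 0.40 (SE), adjusted p = 0.04; difference 2.94 ± 0.62 with adjusted p = 0.0176). The Raptor KO call for Ahr was lost with DESeq2, with limma-voom and without any 1 of 5 of the 6 libraries. Tnfsf10 had 5.12, 5.89 and 1.98 CPM in CD8+ against 4.54, 5.79 and 5.78 CPM in CD4+ cells in WT (log2 fold change -0.45 ± 0.37 (SE), adjusted p = 0.649; difference 2.55 ± 0.46 with adjusted p = 0.00486). In both subsets WT levels of Tnfsf10 were below those of Raptor KO CD8+ cells.

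Zbtb7b differed in both genotypes, and more so in Raptor KO: WT CD8+ cells had 6.70, 15.5 and 3.11 CPM, against 39.6, 33.0 and 24.2 CPM in WT CD4+ cells (log2 fold change -2.05 ± 0.28 (SE), adjusted p = 1.6e-06; difference -2.93 ± 0.58 with adjusted p = 0.00913). The CD4+ libraries of the genotypes overlapped, while each Raptor KO CD8+ library held less than any WT CD8+ library. Ahcyl2, a regulator of ion transport related to adenosylhomocysteinase, had 76.2, 77.4 and 67.4 CPM in Raptor KO CD8+ cells against 191, 183 and 180.0 CPM in Raptor KO CD4+ cells (log2 fold change -1.33 ± 0.13 (SE), adjusted p = 8.6e-10), and 53.6, 66.4 and 57.1 CPM in CD8+ against 49.3, 50.8 and 57.8 CPM in CD4+ cells in WT (difference -1.48 ± 0.19 with adjusted p = 1.1e-05). Here the Raptor KO CD4+ libraries were the high ones. Chst11, a chondroitin sulfotransferase, had 31.8, 46.5 and 27.4 CPM in CD8+ against 3.42, 3.45 and 3.78 CPM in CD4+ cells in Raptor KO and 20.9, 21.4 and 23.8 CPM in CD8+ against 8.43, 11.6 and 6.60 CPM in CD4+ cells in WT (1.94 ± 0.41 with adjusted p = 0.0167). St6gal1, a sialyltransferase, had 8.37, 8.36 and 16.9 CPM in CD8+ against 39.9, 39.3 and 27.9 CPM in CD4+ cells in Raptor KO and 15.0, 15.0 and 11.3 CPM in CD8+ against 12.3, 6.24 and 6.60 CPM in CD4+ cells in WT (-2.35 ± 0.47 with adjusted p = 0.0268). Atxn1, a transcriptional regulator, had 49.4, 61.2 and 85.5 CPM in CD8+ against 32.5, 24.8 and 37.3 CPM in CD4+ cells in Raptor KO and 51.6, 49.8 and 68.7 CPM in CD8+ against 62.9, 78.9 and 69.1 CPM in CD4+ cells in WT (1.36 ± 0.26 with adjusted p = 0.00723). In these genes the subsets were farther apart in Raptor KO than in WT.

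Other genes were closer together in Raptor KO. Egr2 had 24.3, 34.0 and 37.6 CPM in Raptor KO CD8+ cells against 41.6, 46.2 and 67.5 CPM in Raptor KO CD4+ cells, and 12.6, 10.2 and 12.4 CPM in WT CD8+ cells, against 57.7, 48.6 and 46.2 CPM in WT CD4+ cells (log2 fold change -2.08 ± 0.22 (SE), adjusted p = 3.9e-09; difference 1.40 ± 0.30 with adjusted p = 0.0167). Rxra, a nuclear receptor that pairs with the vitamin D and retinoid receptors, had 27.6, 27.2 and 45.1 CPM in CD8+ against 38.7, 42.0 and 46.3 CPM in CD4+ cells in Raptor KO and 15.0, 12.8 and 16.1 CPM in CD8+ against 61.0, 49.5 and 47.9 CPM in CD4+ cells in WT (1.5 ± 0.30 with adjusted p = 0.00913). Trim30a, an interferon-induced protein, had 22.6, 24.0 and 20.8 CPM in CD8+ against 20.5, 26.2 and 20.8 CPM in CD4+ cells in Raptor KO and 34.3, 43.4 and 31.4 CPM in CD8+ against 9.73, 11.1 and 11.0 CPM in CD4+ cells in WT (-1.73 ± 0.29 with adjusted p = 0.00197). For Egr2 and Rxra the WT CD8+ level was the low one, for Trim30a the WT CD4+ level. Ms4a4b, a membrane protein of naive and effector T cells, had 136, 141 and 179 CPM in CD8+ against 26.2, 40.0 and 55.3 CPM in CD4+ cells in Raptor KO and 87.5, 88.9 and 73.8 CPM in CD8+ against 8.43, 3.56 and 7.16 CPM in CD4+ cells in WT (-1.81 ± 0.38 with adjusted p = 0.0332). By contrast, Stat5a and Il21r, which serve cytokines of the IL-2 family, were farther apart in Raptor KO, where both passed. Their differences were 1.01 ± 0.21 with adjusted p = 0.0139 and 0.98 ± 0.22 with adjusted p = 0.0317. Neither passed within WT (Stat5a -0.29 ± 0.15 with adjusted p = 0.345, Il21r -0.25 ± 0.15 with adjusted p = 0.481). Of the pathway lists, the ATF4 response had 7 of 27 members higher in CD8+ cells in WT and none higher in Raptor KO with edgeR, where DESeq2 and limma-voom called 1 higher and the block 2, and no member passed the test between genotypes.

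**Figure D4:**
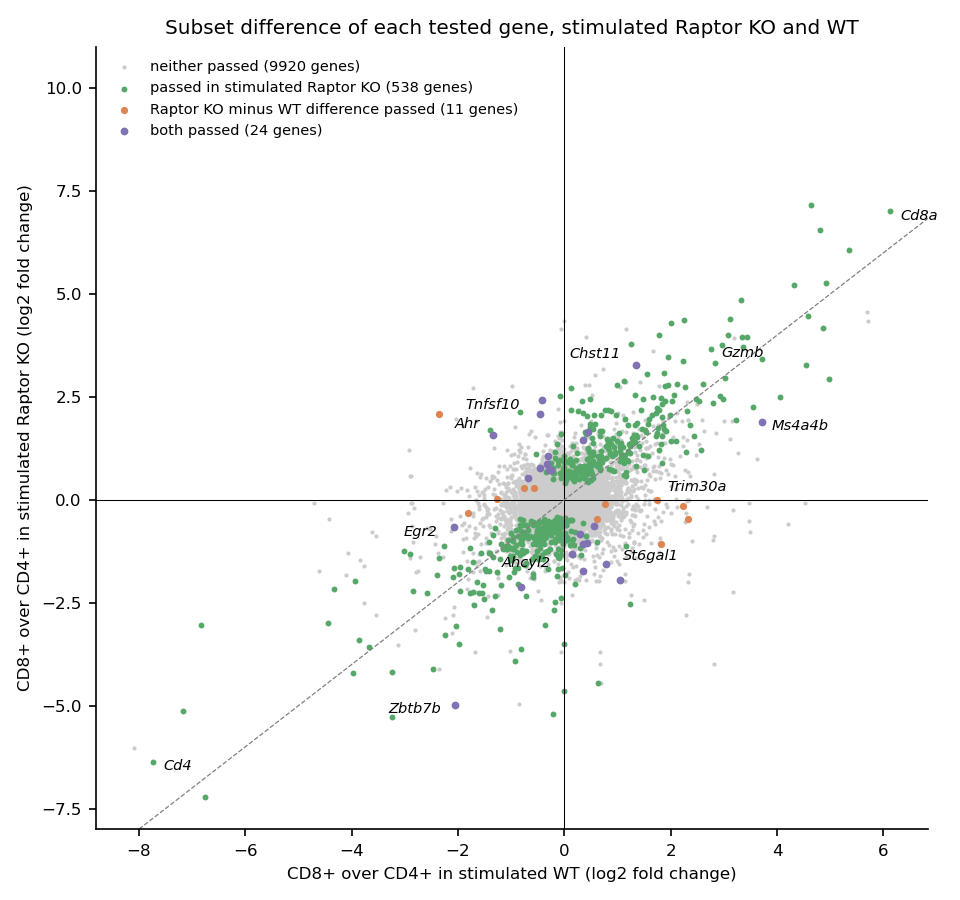
Log2 fold change of CD8+ over CD4+ cells in stimulated Raptor KO (vertical axis) against stimulated WT (horizontal axis), with 1 point per tested gene and a dashed line of equality. Of the 10493 genes 538 passed in Raptor KO and not in the test between genotypes, 11 in that test and not in Raptor KO, and 24 in both; Zbtb7b lies below the line and Ahr above it.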

How the data were processed

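Total RNA of sorted T cells was fragmented, ligated to 3′ adaptors and amplified, per the labels' protocols. The submitters' processing notes name the aligner STAR 2.6.0a and the build GRCm38. How reads were assigned to genes, with which annotation and strand setting, is not given in the sources used here, so reads of overlapping genes on opposite strands cannot be told apart. The authors deposited raw read counts per gene, as whole numbers, for 27 libraries in 9 groups of 3, with totals of 8640699 to 16817347. Of 26802 rows 26765 were matched to GENCODE M21 for position and class.

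Counts without Rn45s were fitted with edgeR 4.0.16 (R 4.3.3) for all 27 libraries, with 1 mean per group, TMM scaling, the default low-count filter (minimum count 10, minimum total 15), robust quasi-likelihood dispersions and F tests, at an adjusted p under 0.05. Keeping all groups pools the estimate of the spread. The filter can keep a gene that is high in 1 group alone, so the shares of list members are descriptions. The 5 comparisons were CD8+ against CD4+ cells in stimulated Raptor KO, in resting Raptor KO and in stimulated WT, and the differences of the first from the others. The standard error is the log2 fold change divided by the root of F. The common biological coefficient of variation was 0.187. On simulated data built from these counts for stimulated Raptor KO (10493 genes), 52 of 100 changes of 2-fold and 82 of 100 of 4-fold were recovered, with 4 false calls. No pair of libraries of a group agreed within sampling noise. Intervals of ratios and floors cover counting error only.

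The titles give same-numbered WT and Raptor KO libraries a shared code, and the 3 Rictor KO libraries 1 code, without stating what it marks. Same-numbered CD8+ and CD4+ libraries deviated together in resting Raptor KO (correlations 0.331, 0.215 and 0.398), so these pair by the rule used. In stimulated Raptor KO (0.236, 0.026 and 0.299) and stimulated WT (0.069, 0.086 and 0.367) they did not all exceed 0.1. The fits carry no block, also in resting Raptor KO. Results with the library number as a block are given for some, not all, described genes whose call it changed. Among the rest, Eomes, Lta and Tnfrsf9 gained an upward stimulated minus resting call, and Gata3, Klf2 and Tnfsf8 a downward one. Ccr8, Nr4a2 and Nfkb1 gained an upward Raptor KO minus WT call, and Cd2 and Itih5 a downward one. In stimulated WT Il12rb2 and Tbx21 gained a call and Gbp2 lost it. The block was fitted with only the groups compared. That fit without a block already gave the changes of Eomes, Lta, Tnfsf8 and Gbp2. Alternatives were other size factors, no filter and another filter (over 5 CPM in at least 3 libraries), which tested 10651 genes. Others were DESeq2 1.42.0, limma-voom (limma 3.58.1), only the groups compared, a replicate block, protein-coding genes only, a minimum fold change of 1.5 and leaving out each library. A further one kept Rn45s in the totals and used no TMM scaling. One alternative, leaving out the Raptor KO libraries numbered 1, was added after seeing the data. Named genes were the subset and targeted genes, the 12 largest and 12 smallest called changes with a mean of at least 10 CPM and no overlap, the 6 largest and smallest in each interaction, members of 12 core lists, and in 19 other lists the 3 largest called changes and the first symbols. The lists and members were chosen with earlier results of these data known. Stimulated Rictor KO cells and resting WT cells entered the fit and are not described. Some list members that counted in the totals are not reported here by name.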

Additional observations from a re-analysis of the deposited data

Results flagged for a closer look

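For 54 values the difference between the subsets itself differed, stimulated against resting or Raptor KO against WT, at an adjusted p under 0.05 in edgeR's test of that difference. All are differences of log2 fold changes (CD8+ over CD4+).

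Stimulated minus resting, the CD8+ direction gained for the granule genes Gzmb (5.33), Prf1 (3.44) and Serpinb9 (2.01), the activation marker Cd83 (4.97) and Rasgef1b (3.75). It gained for the receptors Il10ra (1.9), Ccr7 (1.39) and Itga4 (1.97), and for Il2ra (3.17) and Nrp1 (4.95), whose RNA was higher in CD4+ cells at rest. The transcription factors with a gain were Nr4a1 (2.91), Jun (1.65), Stat4 (1.61), Klf6 (1.39), Nfkb1 (1.32) and Rel (0.81). Further gains were those of Btg2 (1.16), Ms4a4b (1.78), the transporter gene Slc6a6 (1.04), Ndrg1 (1.92) and Cenpa (1.19). Myo10 (9.90) and Ncapg2 (6.02) had no count in resting CD8+ cells, and Cd83 and Nrp1 had 1, so these 4 values depend on the prior count and are no bound.

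Stimulated minus resting, the CD4+ direction gained for the receptors Il6ra (-2.68), Il6st (-1.28), Il2rb (-1.17), Gpr183 (-1.12) and F2r (-3.20). It also gained for the transcription factors Tbx21 (-3.36), Ikzf3 (-1.85) and Arid5b (-1.94), and for Casp6 (-3.23), Rgs10 (-3.00), Sntb2 (-2.48) and Ahcyl2 (-0.90). The RNA of Tbx21 and Il2rb was higher in CD8+ cells at rest, and neither gene passed between the subsets in stimulated cells.

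Raptor KO minus WT, in stimulated cells, the difference was shifted toward CD8+ cells for Ahr (2.94), Tnfsf10 (2.55), Chst11 (1.94), Rxra (1.5), Egr2 (1.40), Atxn1 (1.36), Slfn2 (1.28), Btg2 (1.22), Stat5a (1.01), Il21r (0.98) and Cd6 (0.86). It was shifted toward CD4+ cells for Zbtb7b (-2.93), Ypel3 (-2.89), St6gal1 (-2.35), F2r (-2.08), Ms4a4b (-1.81), Trim30a (-1.73), Ahcyl2 (-1.48) and Fnip1 (-1.20). Btg2, F2r, Ms4a4b and Ahcyl2 passed both tests, which share the stimulated Raptor KO libraries. With the library number as a block the stimulated minus resting differences of Gzmb, Nr4a1 and Cenpa and the genotype differences of Fnip1 and Ypel3 did not pass. None of them passed with only the groups compared and no block either.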

How the results depend on the processing

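The counts of genes that passed are given for stimulated Raptor KO, resting Raptor KO, stimulated WT, stimulated minus resting, and Raptor KO minus WT, in that order, against 562, 331, 544, 135 and 35 as reported. With Rn45s kept in the totals and no TMM scaling they were 175, 136, 181, 50 and 2, and the median of all genes moved by 0.0656, -0.3587, 0.0836, 0.4234 and -0.0184 on the log2 scale. At a minimum fold change of 1.5 they were 173, 91, 171, 39 and 3. Without the Raptor KO libraries numbered 1 they were 312, 185, 510, 51 and 14, with fewer libraries in the fit and the cause not tested. Leaving out 1 library gave 384 to 492, 199 to 264, 399 to 487, 84 to 140 and 17 to 45. Other changes beyond 1.5 times were 83 with limma-voom for stimulated minus resting, 195 with only the groups compared for resting Raptor KO, and, for Raptor KO minus WT, 75 with no filter, 53 with protein-coding genes only, 18 with only the groups compared and 102 with the replicate block. The cause of these was not tested. The block was fitted with only the groups compared, where the counts without it were 507, 195, 394, 100 and 18. With the replicate block the other counts were 657, 442, 635 and 164, and in stimulated Raptor KO CD8+ library 2 did not correlate best with its own number. DESeq2 called 473 genes in stimulated Raptor KO and limma-voom 539. Of 116 named genes called there, 48 kept the call in every alternative and Foxp3 in every one where it was tested, 36 lost it without at least 1 library, 31 without the Raptor KO libraries numbered 1, 51 with Rn45s kept, 52 at a fold of 1.5, 10 with DESeq2, 12 with limma-voom and 2 with the block. No named gene called there had the opposite sign in an alternative, while 48 of the 169 named genes not called took both signs. The nearly even balance of higher and lower calls did turn: in stimulated Raptor KO it was 271 and 280 with median-ratio size factors, 290 and 305 with protein-coding genes only, and 236 and 256 without CD4+ library 3, against 286 and 276, and in resting Raptor KO it was 41 and 95 with Rn45s kept, against 173 and 158. Depth limits what was detectable: a tested gene had a median of 29 counts in a library of the 6.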

Other observations

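Outside the lists, several genes that passed in stimulated Raptor KO cells held at most 3 counts in each resting Raptor KO subset. They were chosen after their values were seen. Sema4c, a semaphorin that signals between cells, had 40.2, 49.7 and 36.5 CPM in CD8+ cells, against 6.27, 9.65 and 6.61 CPM in CD4+ cells (log2 fold change 2.50 ± 0.28 (SE), adjusted p = 2.0e-08). Wnt10b, a secreted Wnt ligand, had 14.2, 21.4 and 20.8 CPM in CD8+ cells, against 2.28, 0.689 and 2.36 CPM in CD4+ cells (log2 fold change 3.32 ± 0.46 (SE), adjusted p = 3.0e-06). Mt1, a metallothionein that binds zinc, had 8.37, 15.2 and 15.7 CPM in CD8+ cells, against 2.28, 3.45 and 1.89 CPM in CD4+ cells (log2 fold change 2.43 ± 0.48 (SE), adjusted p = 8.4e-04). In all 3 the lowest CD8+ library was above the highest CD4+ library. Acsl6, an acyl-CoA synthetase, had 14.2, 18.8 and 10.6 CPM in CD8+ cells, against 3.42, 2.07 and 4.72 CPM in CD4+ cells (log2 fold change 2.01 ± 0.42 (SE), adjusted p = 0.00173). Tnfsf4, the ligand of OX40, had 16.7, 16.7 and 10.6 CPM in CD8+ cells, against 2.28, 4.14 and 6.61 CPM in CD4+ cells (log2 fold change 1.69 ± 0.51 (SE), adjusted p = 0.0435), while the RNA of OX40 itself, Tnfrsf4, was lower in CD8+ cells. Ankrd33b had 9.21, 15.7 and 2.74 CPM in CD8+ cells and no count in CD4+ cells. In the other direction Akr1c18, a hydroxysteroid dehydrogenase, had no count in CD8+ cells and 2.85, 8.96 and 15.6 CPM in CD4+ cells, with CD4+ library 3 the highest, and Pros1, encoding the anticoagulant protein S, had 15.1, 9.93 and 5.10 CPM in CD8+ cells, against 25.6, 25.5 and 18.9 CPM in CD4+ cells (log2 fold change -1.31 ± 0.37 (SE), adjusted p = 0.0288).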
